A study of Danio rerio with 6 samples.

Results

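Cadherins, protocadherins and claudins are the gene families whose products hold neighbouring cells together and seal the space between them. They were examined here in RNA-seq data from zebrafish (Danio rerio) embryos, in tissue dissected behind the last somite, at 16 hours post fertilisation. The genes were taken by name. Names of cdh and a digit gave 27 rows, names starting cldn gave 34, and names of pcdh and a digit gave 17 once the clustered protocadherins were left out. This made 78 of the 32520 rows. The same name rule left out 39 rows, among them pcdh1a and pcdh1b, which carry a letter after pcdh1 without belonging to the clusters. The claudin rows include cldnd1a and cldnd1b, which encode claudin domain proteins. The names cdh23, pcdh11 and pcdh20 each stand on 2 rows, which were kept apart.

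The sall4 morphant group held 3 libraries from embryos injected with a morpholino, an antisense oligomer, against sall4. The control group held 1 library from embryos given a scrambled morpholino (control 1) and 2 from embryos that were not injected (controls 2 and 3). Only 1 of the 3 controls went through an injection, so in most of the comparison injection and target cannot be told apart. Separate clutches are not stated, so the spread that the p-values rest on may be partly technical.

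Total counts ran from 18626513 to 42423495 per library. Levels of sall4 ran from 1110 to 1347 CPM (read counts scaled to library size) over the controls and from 975 to 1390 CPM over the morphants. Transcript levels do not check a morpholino of unstated kind, because one that stops translation can leave the RNA in place. Markers of the labelled tissue were present in every library, with tbx16 at 424.8 to 702.4 CPM and msgn1 at 2141 to 8006 CPM, although wnt8a had at most 2 reads in any library. The typical gene, at the median of the 17803 tested, had a log2 fold change of 0.12, which is the value to hold the members against. Deviation of a gene from its 6-library mean went with its relative length. Spearman's rho across genes, which are not independent replicates, was −0.42, 0.43 and −0.28 in morphants 1 to 3. In controls 1 to 3 it was 0.21, −0.01 and 0.04.

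Classical cadherins span the membrane, bind the same kind of cadherin on the next cell in the presence of calcium, and are tied to actin inside the cell through catenins. E-cadherin is typical of epithelia and N-cadherin of neural tissue and mesoderm, and a balance between them accompanies the movements of cells through the tailbud. Protocadherins outside the clusters adhere more weakly and act in the sorting and movement of cells. Claudins are small proteins with a set of membrane-spanning passes that form the strands of tight junctions between epithelial cells.

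The 3 families stood at very different levels. On the FPKM scale, which is per gene length, 9 of the 27 cadherin rows, 8 of the 17 protocadherin rows and 20 of the 34 claudin rows reached a mean of at least 1 FPKM over the 6 libraries. The summed FPKM of the claudins was 1255 to 1503 in controls, against 166.2 to 204.0 for the cadherins and 125.6 to 139.3 for the protocadherins. A few genes made up most of each sum. N-cadherin (cdh2) took 40.6% to 55.2% of the cadherin sum in the 6 libraries and E-cadherin (cdh1) 19.8% to 40.2%. The paraxial protocadherin gene pcdh8, known from the presomitic mesoderm of the zebrafish, took 71.4% to 84.2% of the protocadherin sum. The claudin sum was spread more widely, over cldni (a mean of 22.9%), cldne (20.3%), cldnb (17.9%) and cldn7b (15.4%).

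**Figure D1:**
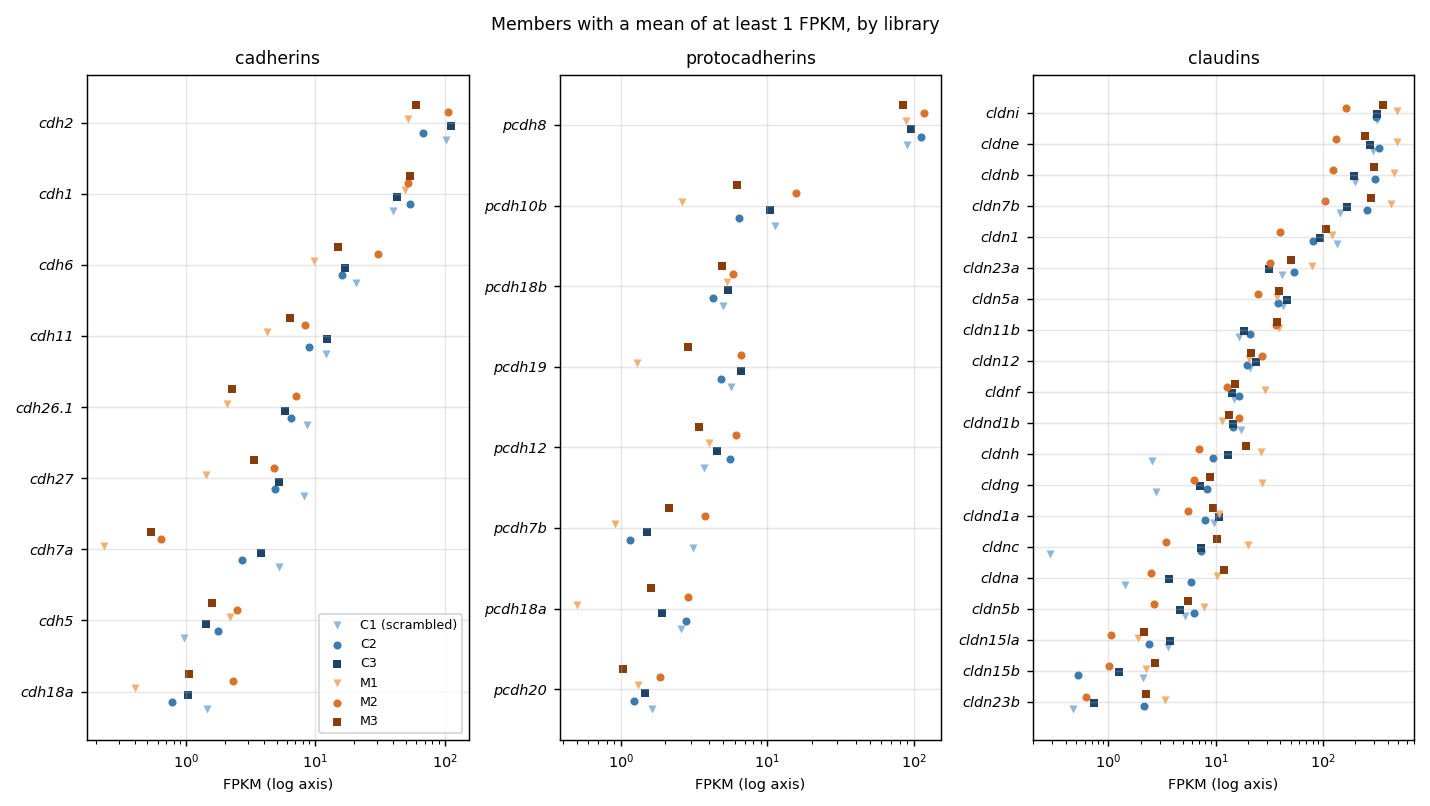
FPKM (log axis) of the 37 members with a mean of at least 1 FPKM, with 1 point per library and 1 panel per family (C, control; M, morphant). The highest members were cdh2, pcdh8 and cldni, and the points of cdh7a fall into separate control and morphant groups, while those of cldnc and cldnh lie lowest in the scrambled control.

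The comparison of morphants with controls asks which of these adhesion genes differ when sall4 is targeted. By edgeR no member passed the threshold of 0.05 on the adjusted p, against 5 of all 17803 tested genes (0.0281%). An unadjusted p under 0.05 was found for 5 of the 50 tested members (10%, against 9.66% of all tested genes). Higher were pcdh9 and cldn11b (4.47% of all genes were higher), and lower were cdh7a, cdh11 and pcdh20 (5.19%). The groups did not overlap in CPM for 9 of the 50 members (18%), close to the 17.0% of all tested genes, with 2 members higher (7.77% of all genes) and 7 lower (9.18%). DESeq2 called 2 of the 63 members to which it gave an adjusted p, against 1.56% of all genes, with cdh7a lower (0.720% of all genes) and cldn11b higher (0.842%). Without morphant 2, edgeR called 6 of 54 members (8.46% of all genes), and with the length trend removed as well 3 of 54 (5.57%). These shares were near the background, and the results turn on single genes and single libraries.

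**Figure D2:**
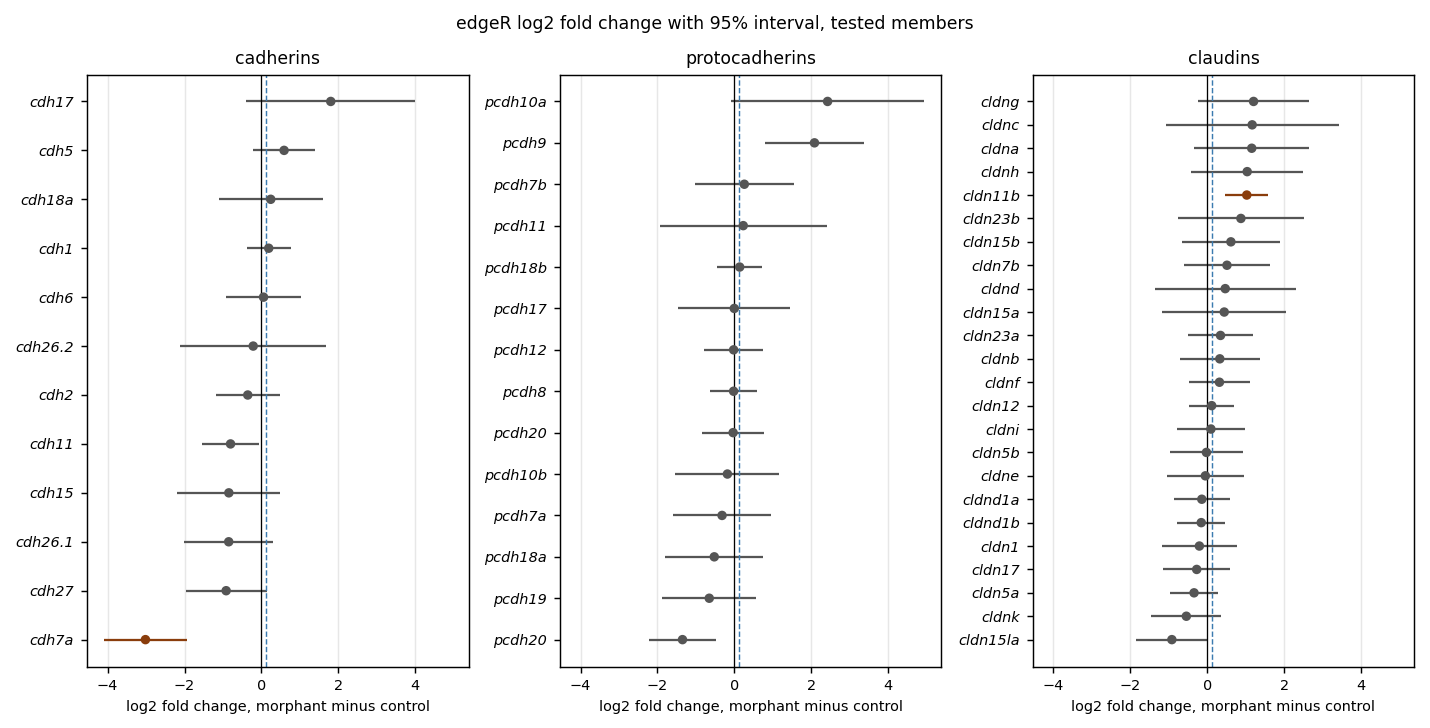
Log2 fold change (morphant minus control, edgeR) with its 95% interval for the 50 tested members, 1 panel per family. The dashed line is the median of all tested genes (0.12), and brown marks the 2 members called by DESeq2, cdh7a and cldn11b. The row pcdh20 appears for both of its identifiers.

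Among the cadherins, cdh7a (ENSDARG00000023542), which encodes a type II cadherin, stood furthest apart. It was measured at 13.1, 6.99 and 9.78 CPM in controls 1 to 3 and at 0.591, 1.68 and 1.35 CPM in morphants 1 to 3. All morphants lay far below all controls. The means were 9.96 ± 3.08 and 1.21 ± 0.56 CPM (SD, n = 3). This gave −3.02 as the log2 fold change (SE 0.47, 95% interval −4.09 to −1.94), with an edgeR adjusted p of 0.12 and a DESeq2 adjusted p of 4.9e-07. The counts behind these values were 142 to 400 reads per control and 9 to 43 per morphant. With no filter on low counts the edgeR adjusted p was 0.037 (0.103% of all genes passed there). Without morphant 2 it was 0.012 (log2 fold change −3.32), where 8.46% of all genes passed. Of the 20 alternatives, 2 of which are the same fit, cdh7a passed in 4. In bulk tissue, fewer cells of a type and less RNA per cell cannot be told apart. Markers of the neural tube (12 of 12 found, none at 0) summed to 1289 to 1326 CPM in controls. In morphants 1 to 3 they summed to 1090, 706.4 and 911.0 CPM. Morphant 1 was thus the highest morphant for this sum and the lowest for cdh7a. The part of neural tissue in the values of cdh7a was not tested.

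The mesenchymal cadherin gene cdh11 (ENSDARG00000021442) stood at 51.6, 39.6 and 53.6 CPM in controls and at 18.5, 37.2 and 27.1 CPM in morphants. The groups did not overlap, but morphant 2 came close to control 2. It had −0.80 as its log2 fold change (SE 0.32) with an edgeR adjusted p of 0.48, and without morphant 2 it was −1.10 with an adjusted p of 0.042. With the length trend removed as well, cdh11 did not pass. The gene cdh27 (ENSDARG00000055093) stood at 22.1, 13.4 and 14.3 CPM in controls and 3.88, 13.3 and 9.06 CPM in morphants. Here too morphant 2 almost touched the controls (log2 fold change −0.92, SE 0.46, adjusted p = 0.56). The M-cadherin gene cdh15, known from skeletal muscle, completed the 4 cadherins whose morphants all lay below the controls, 4 of 12 tested against 9.18% of all tested genes. It stood at 3.10 ± 0.35 and 1.69 ± 1.16 CPM (log2 fold change −0.85, adjusted p = 0.63).

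The 2 most abundant cadherins did not pass the test. The E-cadherin gene cdh1 (ENSDARG00000102750) was measured at 184.7, 258.0 and 200.9 CPM in controls and 233.0, 252.1 and 248.5 CPM in morphants. The morphants were close to one another and within the range of the controls, with a log2 fold change of 0.19 (SE 0.25, 95% interval −0.38 to 0.76, edgeR adjusted p = 0.78). The N-cadherin gene cdh2 (ENSDARG00000018693) was measured at 470.0, 316.5 and 523.7 CPM in controls and 241.4, 508.7 and 273.4 CPM in morphants. Morphants 1 and 3 lay below all controls and morphant 2 did not, so that the log2 fold change was −0.36 (SE 0.36, 95% interval −1.19 to 0.47, adjusted p = 0.72). The ratio of the 2 genes does not depend on how libraries are scaled. Its log2 was −1.35, −0.29 and −1.382 in controls and −0.05, −1.01 and −0.14 in morphants. Control 2 thus stood nearer to morphants 1 and 3 than to the other controls, and the group means differed by 0.61 (two-sided exact permutation p = 0.20, adjusted p = 0.67 over 5 ratios; the smallest p that 3 against 3 allows is 0.10).

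Of the cadherins known from particular tissues, cdh6, a type II cadherin first known from the kidney, had a control mean of 70.4 ± 8.75 CPM and a morphant mean of 73.0 ± 44.4 CPM. Its morphant values were 38.0, 122.9 and 58.0 CPM, with the controls, at 64.2 to 80.4 CPM, in between (log2 fold change 0.05, adjusted p = 0.97). The vascular endothelial cadherin gene cdh5 stood at 5.94, 11.2 and 8.95 CPM in controls and 13.7, 15.8 and 9.75 CPM in morphants, and morphant 3 lay within the controls (log2 fold change 0.59, SE 0.35, adjusted p = 0.60). Endothelial markers (10 of 10 found, pecam1 with at most 3 reads) summed to 190.3 to 240.8 CPM in controls and 159.9 to 210.2 CPM in morphants. The log2 ratio of cdh5 to the endothelial receptor gene kdrl was −0.11 ± 0.39 in controls and 0.61 ± 0.73 in morphants, overlapping groups (exact permutation p = 0.30, adjusted p = 0.67 over 5 ratios). The gene cdh17, known from the pronephros of the zebrafish, gave 0, 26 and 19 reads in controls. Its morphants gave 40, 64 and 23 reads, overlapping the controls (log2 fold change of 1.80, SE 0.96, adjusted p = 0.57). Retinal cadherin (cdh4) was near absence, with at most 2 reads in any library.

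The gene cdh26.1 was chosen after its values were seen. It stood at 25.9, 19.8 and 17.7 CPM in controls and 6.24, 22.1 and 6.77 CPM in morphants. Morphant 2 lay within the controls (log2 fold change −0.85, SE 0.51, edgeR adjusted p = 0.60). Without morphant 2 the gene passed edgeR (−1.72, adjusted p = 0.019), where 8.46% of all genes passed. It also passed with the length trend removed as well (−1.51, adjusted p = 0.020), where 5.57% did. The remaining cadherins were low. Of the 27 rows 12 were tested and 15 fell below the count filter. No read was found for cdh28 and for 1 of the 2 cdh23 rows. Among the untested rows, cdh31, chosen after its values were seen, gave 11, 8 and 29 reads in controls and 0, 1 and 1 in morphants (DESeq2 adjusted p = 0.073). Without morphant 2 it entered the edgeR test and passed it (log2 fold change −4.24, adjusted p = 0.046). With the length trend removed as well, cdh31 did not pass. The morphants of cdh24b also lay below the controls, and those of cdh13 above them, with 48 against 20 and 18 against 33 reads per group. Over the 12 tested cadherins the median log2 fold change was −0.29, against 0.12 for all genes, and 8 of the 12 were below that value. Their range ran from −3.02 (cdh7a) to 1.80 (cdh17).

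**Figure D3:**
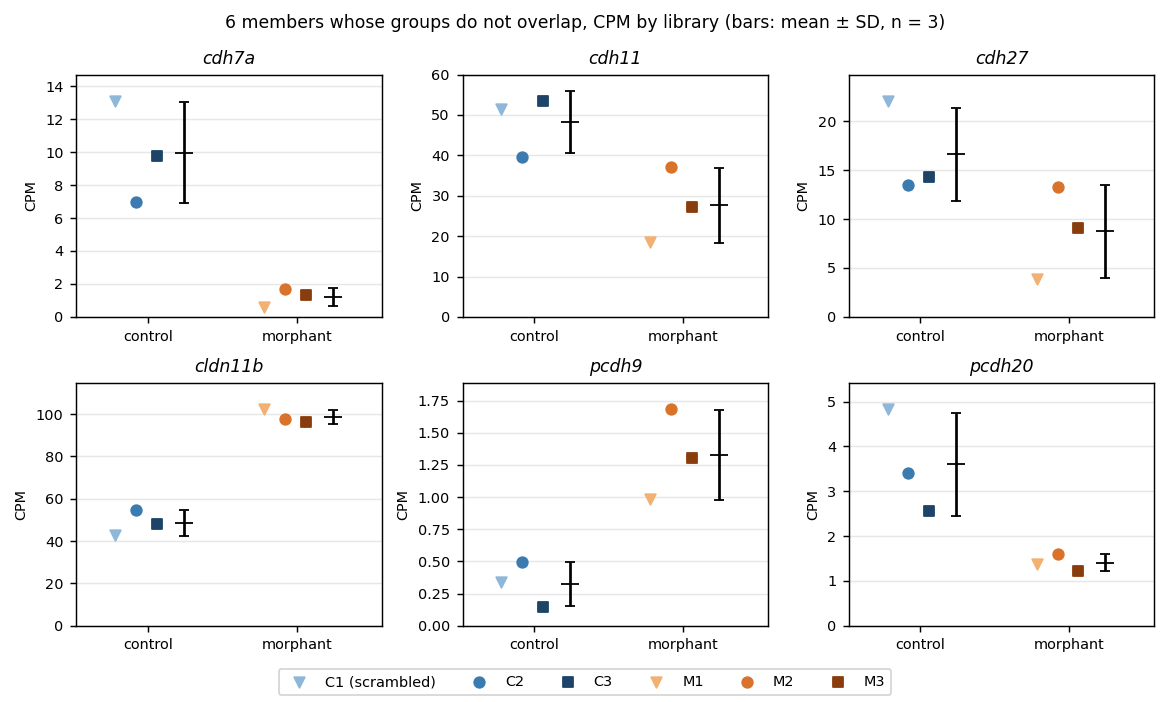
CPM by library for 6 of the 9 tested members whose groups did not overlap, chosen after their values were seen, with the mean and SD (n = 3) beside the points. The cldn11b morphants sit at 96.2 to 102.3 CPM and the controls at 42.8 to 54.7 CPM, while for cdh11 and cdh27 morphant 2 lies just below the lowest control. The pcdh20 panel shows ENSDARG00000036424.

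Among the protocadherins, pcdh8 (ENSDARG00000006467) was by far the most abundant, and its groups overlapped. It was measured at 516.4, 652.8 and 555.2 CPM in controls and 515.9, 698.8 and 485.4 CPM in morphants. By edgeR the log2 fold change came to −0.02 (SE 0.27, adjusted p = 0.98), and the 95% interval from −0.63 to 0.59 leaves room for differences of that size in either direction. Its log2 ratio to tbx16, a T-box gene of the same mesoderm, was 0.21 to 0.33 in controls and −0.45, 0.66 and 0.03 in morphants. The morphants thus scattered on both sides of the controls (exact permutation p = 0.70, adjusted p = 0.88 over 5 ratios). Relative lengths were 2.71 for pcdh8 and 2.13 for tbx16, and the part of gene length in this ratio was not tested.

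The gene pcdh9 (ENSDARG00000063264), a delta protocadherin, stood at 0.338, 0.492 and 0.147 CPM in controls and 0.985, 1.68 and 1.31 CPM in morphants. All morphants lay above all controls, on 6 to 10 reads per control and 15 to 43 per morphant. Its log2 fold change was 2.08 (SE 0.56, 95% interval 0.80 to 3.36), with an adjusted p of 0.30 by edgeR and 0.084 by DESeq2. One of the 2 pcdh20 rows (ENSDARG00000036424) stood at 4.83, 3.39 and 2.57 CPM in controls and 1.379, 1.60 and 1.22 CPM in morphants, without overlap (log2 fold change −1.35, SE 0.39, adjusted p = 0.33). The other pcdh20 row (ENSDARG00000101910) stood at 4.15 ± 0.53 and 4.05 ± 1.299 CPM, with a log2 fold change of −0.03. Reads of 1 gene could be split between rows that share a name, and the values of pcdh20 are uncertain to that extent.

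Of the other delta protocadherins pcdh10b, pcdh18a, pcdh18b and pcdh19, none passed. For pcdh19, which acts with N-cadherin in the neural plate of the zebrafish, the values were 43.8, 38.4 and 52.6 CPM in controls and 10.1, 53.1 and 22.4 CPM in morphants. Its log2 fold change was −0.65 (SE 0.53, adjusted p = 0.67). Without morphant 2 the gene passed (−1.48, adjusted p = 0.040), but not with the length trend removed as well. Morphant 2 was the highest of all 6 libraries and morphant 1 the lowest. The gene pcdh10b showed the same order, with 48.3, 27.8 and 45.2 CPM in controls and 11.2, 69.3 and 26.4 CPM in morphants (log2 fold change of −0.18, adjusted p = 0.91). In pcdh18a the morphants stood at 2.43, 14.3 and 7.71 CPM, on both sides of the control values of 9.31 to 13.7 CPM (−0.52, adjusted p = 0.73). By contrast pcdh18b varied little, at 19.8 ± 2.23 and 21.8 ± 2.34 CPM (log2 fold change 0.14, 95% interval −0.46 to 0.73). A single library decided the value of pcdh10a, whose morphants gave 6, 169 and 13 reads against 3, 14 and 23 in controls. Its log2 fold change was 2.42 (SE 1.09, adjusted p = 0.53) and −0.03 without morphant 2. Over the 14 tested protocadherins the median log2 fold change was −0.02, and 3 rows (1 of the pcdh11 rows, pcdh15a and pcdh15b) fell below the filter.

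Among the claudins, cldn11b (ENSDARG00000030723) stood apart from the rest of its family. In mammals claudin 11 forms the tight junctions of myelin and of Sertoli cells. It was measured at 42.8, 54.7 and 47.8 CPM in controls and at 102.3, 97.5 and 96.2 CPM in morphants. Each morphant lay above every control, and the 3 morphants were closer to one another than the controls were. The means were 48.5 ± 5.97 and 98.7 ± 3.18 CPM, and 1.03 was the log2 fold change (SE 0.24, 95% interval 0.47 to 1.58), with an adjusted p of 0.23 by edgeR and 0.034 by DESeq2. The log2 fold change lay between 0.93 and 1.19 under all 20 alternatives, 2 of which are the same fit, and the edgeR adjusted p was 0.029 without morphant 2. Its paralogue cldn11a gave 2, 1 and 7 reads in controls and 12, 7 and 15 in morphants, too few for the edgeR test. The morphant CPM values of cldn11a also lay above those of the controls, at 0.558 ± 0.261 against 0.106 ± 0.061 (DESeq2 adjusted p = 0.29).

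The 4 most abundant claudins did not pass. The gene cldne, known from the enveloping layer of the zebrafish embryo, was measured at 553.2, 643.6 and 527.3 CPM in controls and 938.2, 259.3 and 467.6 CPM in morphants. Morphant 1 was the highest and morphant 2 the lowest of the 6 libraries (log2 fold change −0.05, SE 0.44, adjusted p = 0.97). For cldni the controls were close together at 712.8 to 734.1 CPM, and the morphants were at 1109, 382.9 and 816.0 CPM (0.09, SE 0.38, adjusted p = 0.93). The order was the same for cldnb, known from the lateral line primordium and other epithelia, with morphants at 469.3, 130.3 and 297.4 CPM and controls at 199.9 to 316.4 CPM (0.32, SE 0.45, adjusted p = 0.79). It was the same again for cldn7b, with morphants at 825.1, 202.0 and 522.3 CPM and controls at 269.1 to 495.6 CPM (0.51, SE 0.49, adjusted p = 0.71), and for cldnf (0.31, adjusted p = 0.74).

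The claudin cldn5a, known from the neural tube and the brain ventricles of the zebrafish, stood at 60.7, 55.6 and 66.9 CPM in controls and 53.2, 36.6 and 54.5 CPM in morphants. The groups did not overlap, by a narrow margin, and the log2 fold change was −0.34 (SE 0.27, adjusted p = 0.66). The endothelial cldn5b stood at 8.15 ± 1.33 and 8.04 ± 3.78 CPM (−0.02, adjusted p = 0.99). The intestinal claudin gene cldn15la stood at 2.78 ± 0.62 and 1.47 ± 0.47 CPM, with all morphants below all controls (−0.92, SE 0.41, adjusted p = 0.52). The related cldn15a, at 0.602 ± 0.162 and 0.824 ± 0.588 CPM, overlapped, and cldn15lb gave 2 to 5 reads per control and 4 to 17 per morphant. For cldn19, 12 reads were found in the controls (7, 1 and 4 in controls 1 to 3) and 0 in the morphants, too few to give a fold. Of the 34 claudin rows 24 were tested, 10 fell below the filter, and cldn18 had no read. The median log2 fold change of the tested claudins was 0.32, and it was −0.03 without morphant 1 and 0.62 without morphant 2.

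The families differed most clearly between single morphant libraries. Of the 24 tested claudins, 21 were higher in morphant 1 than in morphant 2, and 16 of them by more than 2-fold. Of the 14 protocadherins none was higher in morphant 1, and 8 were lower by more than 2-fold. Of the 12 cadherins only cdh17 was higher, and 9 were lower by more than 2-fold. Over all tested genes 48.8% were higher in morphant 1 than in morphant 2, 23.2% by more than 2-fold. Another 27.6% of all tested genes were lower in morphant 1 by more than 2-fold. From the mean of the controls, the claudin median on the log2 CPM scale was 0.78, −0.62 and 0.22 in morphants 1 to 3. The cadherin median was −1.36, 0.25 and −0.25, and the protocadherin median −1.11, 0.43 and −0.12. In the controls all 3 medians stayed between −0.19 and 0.18, but the deviations were taken from the controls' own mean, which holds them near 0. Morphants also scattered more in general. Their SD was the larger for 79.5% of all tested genes, and for 66.7% of the cadherins, 78.6% of the protocadherins and 75% of the claudins.

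**Figure D4:**
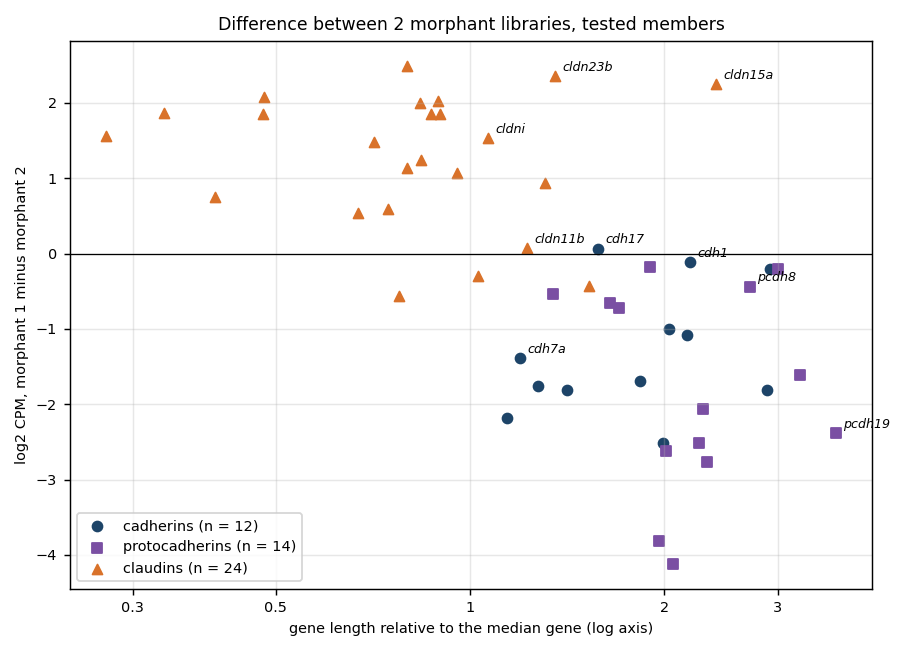
Difference in log2 CPM between morphant 1 and morphant 2 for each tested member against its gene length relative to the median gene (log axis). Claudins lie mostly above 0 (21 of 24), and cadherins and protocadherins mostly below (11 of 12 and 14 of 14).

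Gene length moved with this difference. The median relative length was 0.84 for the tested claudins, 1.91 for the cadherins and 2.16 for the protocadherins, where the median gene has 1. With the length trend of each library removed, 21 of the 24 claudins were higher in morphant 1 than in morphant 2. So were 3 of the 12 cadherins, 3 of the 14 protocadherins and 51.7% of all tested genes. The median difference was 1.51 before and 1.03 after that step for claudins, −1.54 and −0.87 for cadherins, and −1.83 and −0.63 for protocadherins. Of the 7 claudins longer than the median gene, 5 were higher in morphant 1. Among them were cldn23b, cldn15a, on 16 reads in morphant 1 and 4 in morphant 2, and cldni, with a relative length of only 1.07. For cldn11b, also among them, the difference was only 0.07 (log2 CPM scale). In the RefSeq gene order cldne, cldnf and cldna stand next to one another, and their differences on the log2 CPM scale were 1.85, 1.13 and 2.00.

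Epidermal markers did not all share the order seen in claudins. The list of epidermis and periderm markers (17 of 17 found, none at 0) summed to 12585 to 19036 CPM in controls. In morphants 1 to 3 it summed to 8739, 18427 and 7305 CPM. Morphant 2 was thus the highest morphant for this sum, in which keratin genes weigh most, and the lowest for claudins. The median deviation of the 16 tested markers from the mean of the controls was −0.14, −0.05 and −0.64 in morphants 1 to 3 (log2 CPM scale). By that median morphants 1 and 2 lay close together. The epithelial adhesion gene epcam went with the claudins, at 908.1, 349.3 and 695.6 CPM in morphants 1 to 3. The log2 ratio of cldn7b to epcam was −0.66 ± 0.14 in controls and −0.45 ± 0.33 in morphants (exact permutation p = 0.40, adjusted p = 0.67 over 5 ratios). That of cdh1 to epcam was −1.46 to −1.34 in controls but −1.96, −0.47 and −1.49 in morphants, so E-cadherin and epcam did not keep step (exact permutation p = 1.0). The relative length of cdh1 was 2.19. The part of gene length in its ratio to epcam and the part of epidermal content in the claudin values were not tested.

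Some of the claudins also stood low in the scrambled control. Against the mean of the non-injected controls, 6 of the 24 tested claudins were more than 2-fold lower in control 1 (3.70% of all tested genes were) and 1 was more than 2-fold higher. The 6 were cldna, cldnc, cldnd, cldng, cldnh and cldn23b, of which cldnc, cldnd, cldnh and cldn23b were chosen after their values were seen. All 6 were among the 16 claudins more than 2-fold higher in morphant 1 than in morphant 2. The most extreme was cldnc, with 0.483 CPM in control 1, 12.7 and 12.4 in controls 2 and 3, and 34.4, 6.03 and 17.3 in morphants. For cldnh the values were 4.73, 17.9 and 24.5 CPM in controls and 48.8, 13.5 and 34.8 CPM in morphants. Both genes were thus higher in each non-injected control than in morphant 2.

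**Figure D5:**
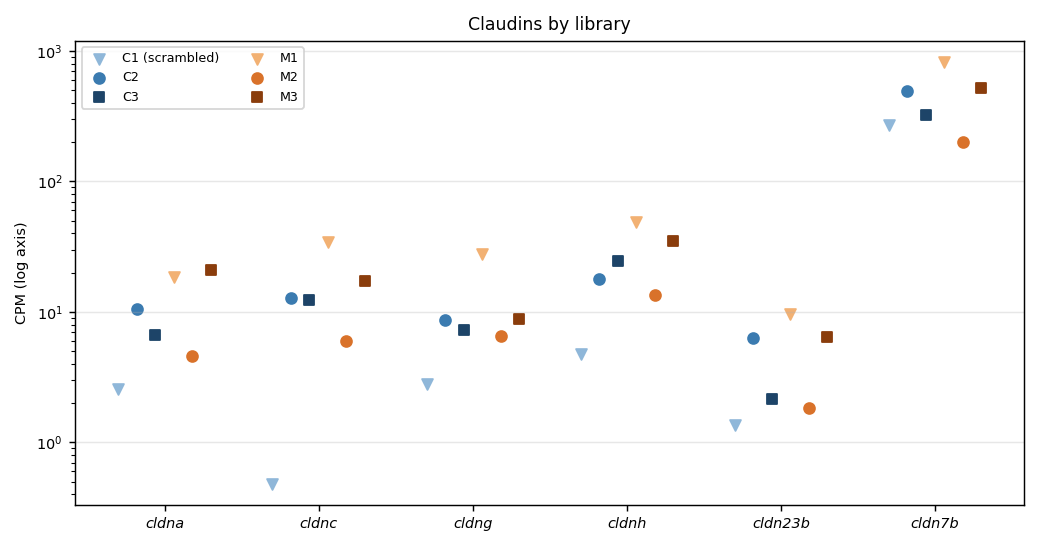
CPM (log axis) in each library for the claudins cldna, cldnc, cldng, cldnh and cldn23b, with cldn7b for comparison. The scrambled control (C1) is the lowest point for the first 5 genes, and morphant 2 lies below morphants 1 and 3 in all 6.

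The folds of these claudins therefore hang on which controls are used. The log2 fold change of cldna was 1.15 (SE 0.65, adjusted p = 0.59) against all controls, 0.77 against the non-injected controls and 2.51 against the scrambled control. For cldng it was 1.202 (SE 0.63, adjusted p = 0.57), against 0.85 and 2.35 with either kind of control alone and 0.31 without morphant 1. Blood markers (7 of 7 found, none at 0) were low in the same library, with a sum of 48.2 CPM in control 1, 448.4 and 378.4 CPM in controls 2 and 3 and 509.1 to 2470 CPM in morphants. So were cdh17, with no read in control 1, and pax2a, a regulator of the pronephros, at 4.88 CPM against 16.4 and 20.4 CPM. The pronephros markers, 9 of 9 found and counting cldnh itself, summed to 107.1 CPM in control 1 against 104.0 and 125.4 CPM in controls 2 and 3. The median deviation of the 6 tested markers, cldnh among them, from the mean of the controls was −0.74 in control 1 and 0.18 and 0.56 in the others (log2 CPM scale). The median marker was thus low in control 1 while the sum was not. Because cldnh was already picked as low in control 1, this median is not a separate check. Control 1 was also the control whose deviations went most with gene length (rho 0.21). Relative length was 0.34 to 0.87 for cldna, cldnc, cldnd, cldng and cldnh, and 1.36 for cldn23b. It was 1.58 for cdh17, and its median was 0.29 for the tested blood and 1.43 for the tested pronephros markers. With 1 scrambled library these differences have no replicate check, and the parts of tissue content and gene length in them were not tested.

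Junction partners, regulators of cadherins and cadherins outside the name rule were read from 4 lists. Of 17 tested catenins, nectins and linkers of adherens junctions, none passed by edgeR and 5 had an unadjusted p under 0.05 (29.4%, against 9.66% of all tested genes). A negative log2 fold change was found for 16 of the 17, and for 7447 of all 17803 genes (median −0.72, against 0.12 for all genes). DESeq2 called 1 of 18 lower (0.720% of all genes), ctnnd2b, a delta catenin gene, with 29.7 ± 9.75 CPM in the control and 11.6 ± 2.12 CPM in the morphant libraries (log2 fold change of −1.36, SE 0.34, adjusted p = 0.27 by edgeR and 0.037 by DESeq2). The afadin gene afdna, which links nectins to actin, stood at 59.5 ± 10.3 and 33.4 ± 3.12 CPM without overlap (−0.84, SE 0.26, adjusted p = 0.37). In both genes morphant 2 lay below every control, at 13.6 CPM for ctnnd2b and 36.8 CPM for afdna. The list did not share this. Its median deviation from the mean of the controls (log2 CPM scale) was −1.05, −0.15 and −0.82 in morphants 1 to 3. In controls 1 to 3 it was 0.25, −0.29 and 0.08, so morphant 2 lay within the controls. The median relative length of the 17 genes was 1.92, and the part of gene length in these values was not tested.

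Of 31 tested partners of tight junctions none passed by edgeR, 4 had an unadjusted p under 0.05 (12.9%, near the 9.66% of all tested genes), and the median was −0.22. The groups did not overlap in CPM for 9 of the 31 (29.0%, against 17.0% of all tested genes). Of these, 1 was higher (7.77% of all genes) and 8 were lower (9.18%). DESeq2 called 1 of 32 lower (0.720% of all genes), tjp1b, which encodes a ZO-1 scaffold that claudins bind. It stood at 180.5, 130.4 and 205.1 CPM in controls and 66.9, 87.8 and 58.6 CPM in morphants, without overlap (log2 fold change −1.27, SE 0.29, adjusted p = 0.22 by edgeR and 0.022 by DESeq2). The junctional adhesion molecule gene jam2b had means of 1.04 ± 0.21 and 0.173 ± 0.150 CPM without overlap (−2.44, SE 0.72, adjusted p = 0.35). Of 19 tested repressors of cadherins and regulators of epithelial state, none passed by edgeR and 2 had an unadjusted p under 0.05 (10.5%, near the 9.66% of all tested genes). DESeq2 called 2 of 19 lower (0.720% of all genes). They were snai1b, a snail repressor whose relatives repress E-cadherin in mammals (−1.36), and twist3 (−2.24, SE 0.54, DESeq2 adjusted p = 0.031). Over this list the median was −0.15, with 7 of the 19 positive. Control and morphant means were 381.5 and 456.3 CPM for snai1a (0.26) and 170.8 and 170.6 CPM for snai2 (−0.002). Both are snail genes more abundant than snai1b (126.0 CPM in controls) and were chosen after their values were seen. The last list held large and desmosomal cadherins outside the name rule, and also dspa and dspb, which encode desmoplakins, not cadherins. Of its 17 tested genes, none passed by either tool and 1 had an unadjusted p under 0.05 (5.88%, against 9.66%). The smallest p-values there were those of fat3a (−2.11, SE 0.76, adjusted p = 0.43) and celsr3 (−1.02, SE 0.45, adjusted p = 0.52). The list as a whole leaned the other way, with a median log2 fold change of 0.42. It was positive for 12 of the 17, and for 10356 of all 17803 genes. The list's median deviation from the mean of the controls was −1.34, 1.17 and −0.37 in morphants 1 to 3 (log2 CPM scale). Its median relative length was 3.88, and the part of gene length in these values was not tested.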

How the data were processed

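RNA-seq counts and FPKM values were deposited for 6 libraries. Per the submitters' processing notes, STAR 2.7.10a, DESeq2 1.38.3 and the build GRCz11 were used, with roles not given. Neither the counter, its strand setting nor the annotation is named in the sources used here. The deposited counts are whole numbers per gene, without normalisation. The deposited FPKM values equal count divided by a gene length and 1 scale per library, as was checked from their ratios, and these ratios gave relative lengths.

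All 32520 genes entered 1 fit. Genes were kept by edgeR's filterByExpr, which left 17803. The quasi-likelihood test of edgeR 4.0.16 in R 4.3.3 was run after TMM scaling, with group as the only term. P-values are two-sided and Benjamini-Hochberg adjusted over every gene in the fit, and 0.05 was the threshold. Each standard error is the size of the log2 fold change divided by the square root of F. Intervals use the moderated degrees of freedom. CPM values use TMM-scaled library sizes. Fits were also run on counts simulated without a length trend, which cannot check them for libraries that have one. Alternatives used DESeq2 1.42.0, limma 3.58.1 on log2(FPKM + 1) and log2(FPKM + 0.1), other scalings, filters and control sets, a replicate block, removal of a length trend (lowess, span 0.3) and each library left out.

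Genes named were those with a known role in tissues of the region, the 4 with the highest mean FPKM and the 4 with the smallest p in each family, any member called by edgeR or DESeq2, and 2 genes per partner list. Members and lists were chosen with earlier results of these data known. Neighbouring genes were read from the RefSeq table of another assembly (GRCz12tu), which matched 71 of the 78 members, so no coordinates are given. Figures were drawn with matplotlib 3.10.9.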

Additional observations from a re-analysis of the deposited data

How the results depend on the processing

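Of the alternative values for the named members, 535 kept their direction and side of the threshold, 9 newly passed it and 33 changed sign, none past the threshold. Using non-injected controls only and leaving out control 1 are the same fit, which is counted under both names here and among the 20 alternatives. Genes called over the whole table numbered 5, but 1 with library size only, 28 unfiltered, 334 by DESeq2, 11 and 16 by limma on log2(FPKM + 1) and log2(FPKM + 0.1), 0 on FPKM without a filter, 0 with non-injected controls only, 0 with the scrambled control only, 20 with the length trend removed, 1009 with that and without morphant 2, and 0 to 1534 with 1 library left out, the last without morphant 2. The replicate numbers were not taken to pair libraries: same-numbered libraries gave correlations of deviations of −0.29, −0.10 and 0.16, 1 of 6 correlated best with its own number, and the replicate block left 0 calls.

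Cadherins called numbered 1 unfiltered, 1 by DESeq2, 2 with the length trend removed and without morphant 2, and 0 to 4 with 1 library left out. Claudins called numbered 1 by DESeq2, 1 with the length trend removed and without morphant 2, and 0 to 1 with 1 library left out. Protocadherins called also numbered 0 to 1 with 1 library left out. The highest of these counts came without morphant 2, where 6 of 54 members and 8.46% of all genes were called. The other settings called 1 of 75 members unfiltered (0.103% of all genes), 2 of 63 by DESeq2 (1.56%) and 3 of 54 with the length trend removed and without morphant 2 (5.57%). The median of all genes was 0.0025 on unfiltered FPKM and −0.042 to 0.16 with 1 library left out. The family medians ran over all 20 alternatives from −0.89 to −0.01 for cadherins, −0.47 to 0.12 for protocadherins and −0.03 to 0.62 for claudins. The lowest values of the first 2 families and the highest of claudins came without morphant 2.

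Signs turned in cldni with library size only (−0.067), the replicate block (−0.033) and the FPKM fits (−0.041 on log2(FPKM + 1) with and without a filter, −0.042 on log2(FPKM + 0.1)). They turned in cdh6 with the block (−0.12), on log2(FPKM + 1) with and without a filter (−0.10), on log2(FPKM + 0.1) (−0.12), with the scrambled control only (−0.15) and with the length trend removed and without morphant 2 (−0.29). The scrambled control only gave 0.044 for cldn5b and 0.12 for pcdh8. Length removal gave 0.11 for pcdh8, and without morphant 2 as well 0.094 for cldn5b, 0.21 for cldne and 0.22 for pcdh8. With 1 library left out, values ran from −0.57 to 0.37 for cdh6, −0.057 to 0.94 for cldn15a, −0.38 to 0.27 for cldn5b, −0.15 to 0.66 for cldnb, −0.66 to 0.27 for cldne, −0.11 to 0.50 for cldnf, −0.26 to 0.40 for cldni, −0.028 to 2.91 for pcdh10a, −1.12 to 0.25 for pcdh10b and −0.22 to 0.084 for pcdh8. The cause was not tested. A lone library left in a group is assumed to vary like the other group.

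Depth limits the 28 untested members most. One of them, cdh31, passed edgeR without morphant 2, but not with the length trend removed as well.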
